A study of Mus musculus with 8 samples.

Results

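Tac2, Sct, Ucn3, Slc17a6, Stmn2 and P2rx3 are 6 mouse genes best known from neurons and hormone-secreting cells, and their array signals were followed here in cells on the way to induced pluripotency. They were chosen from 18193 genes with a probe set of their own on the array. The choice was for signals that differed strongly between days or between treatments in these same data, though those of Stmn2 differed little. The differences of all 6 genes are therefore given as measured values, without a test. Each gene was read from the probe set that names it alone in the platform annotation, and where a gene had several, from the one with the highest mean over the 8 arrays. Tac2, Sct and Ucn3 had 1 such probe set each, Slc17a6 and Stmn2 had 2 and P2rx3 had 3. All 6 genes passed the filter on low signals, a mean log2 signal of at least 5.37, as did 12529 genes in all.

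The cells were of C57BL/6 background and came from a secondary OSKM system, in which the reprogramming factors (Oct4, Sox2, Klf4 and c-Myc) are already carried by the cells and are switched on with doxycycline. The 4 groups were CSA at day 6, DMSO at day 6, CSA at day 3 and DMSO at day 3, with 2 arrays each that the labels call biological repeats. All groups received doxycycline, given on the labels as 2 mg per ml. Their mouse ESC medium held 15% serum, and leukemia inhibitory factor (LIF) was present at 100 units per ml. CSA, cyclosporin A, is a calcineurin inhibitor and was given at a labelled 10 mM, and DMSO is its solvent. The units of the doxycycline and CSA doses are printed as labelled and may be misprints, which could not be checked here. The starting cell type is not given in the sources used here, and no uninduced cells were analysed here, so each level is that of a culture already under reprogramming factors.

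Neuropeptides and peptide hormones are cut from larger precursors, stored in dense-core vesicles and released to act on G protein-coupled receptors of nearby or distant cells. Tac2 encodes the precursor of neurokinin B, a tachykinin of the hypothalamus that acts on the receptor Tacr3. Sct encodes secretin, a gut hormone that drives bicarbonate secretion through Sctr, and Ucn3 encodes urocortin 3, a relative of corticotropin-releasing hormone made in the brain and in pancreatic islets that acts on Crhr2. Slc17a6 encodes VGLUT2, which loads glutamate into synaptic vesicles. P2rx3 encodes an ATP-gated cation channel of sensory neurons, and Stmn2 encodes stathmin 2, a tubulin-binding protein of growing axons. In most other cell types the repressor REST holds many neuronal genes silent, and calcineurin, the phosphatase that CSA inhibits, activates the NFAT transcription factors.

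The promoter windows of 4 of the genes are shown, those of the 6 for which a window was found. Of these, Tac2, Ucn3 and Slc17a6 had higher signals at day 6 than at day 3 under both treatments, and Sct in DMSO alone. A link between the windows and the signals was not tested. The windows run 5′ to 3′ on the gene's strand from 250 bases before the RefSeq start to 50 after it (GRCm38.p6). Tac2 lies at chr10:127724228-127724527 on the plus strand, Ucn3 at chr13:3945300-3945599 on the minus strand, Slc17a6 (the second of its 2 listed starts) at chr7:51624387-51624686 on the plus strand and Sct at chr7:141279084-141279383 on the minus strand. Capitals mark every match on either strand to the letters searched. These were the NFAT core GGAAA, the cyclic AMP response element TGACGTCA and its core TGACG, the AP-1 site TGANTCA, the C/EBP-ATF composite TGATGNAA, the TATA box TATAAA and the left and right parts of the REST site, TTCAGNACC and GACAGNGCC.
Tac2: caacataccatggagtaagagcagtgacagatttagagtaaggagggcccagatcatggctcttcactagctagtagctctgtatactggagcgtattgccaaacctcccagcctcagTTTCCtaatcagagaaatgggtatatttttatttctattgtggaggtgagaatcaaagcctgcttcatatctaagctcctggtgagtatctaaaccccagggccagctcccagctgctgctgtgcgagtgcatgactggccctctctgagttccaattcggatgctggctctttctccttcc
Ucn3: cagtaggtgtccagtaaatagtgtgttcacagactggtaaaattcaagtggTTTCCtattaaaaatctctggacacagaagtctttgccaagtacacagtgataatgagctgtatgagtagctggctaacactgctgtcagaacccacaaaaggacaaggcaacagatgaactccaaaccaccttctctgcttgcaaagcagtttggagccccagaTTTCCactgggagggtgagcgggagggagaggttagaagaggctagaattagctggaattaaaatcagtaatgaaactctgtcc
Slc17a6: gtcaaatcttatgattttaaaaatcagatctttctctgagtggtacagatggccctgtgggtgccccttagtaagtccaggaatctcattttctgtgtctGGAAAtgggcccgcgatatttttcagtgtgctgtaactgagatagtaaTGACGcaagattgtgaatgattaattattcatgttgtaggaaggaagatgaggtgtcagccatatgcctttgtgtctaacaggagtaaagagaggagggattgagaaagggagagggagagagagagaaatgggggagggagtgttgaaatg
Sct: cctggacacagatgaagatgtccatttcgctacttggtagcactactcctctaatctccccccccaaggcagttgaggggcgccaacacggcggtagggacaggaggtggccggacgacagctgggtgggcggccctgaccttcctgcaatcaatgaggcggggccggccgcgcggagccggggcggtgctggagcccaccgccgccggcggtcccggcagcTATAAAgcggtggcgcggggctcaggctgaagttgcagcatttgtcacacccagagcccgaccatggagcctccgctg

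The NFAT core was present 1 time in the Tac2 window, 132 bases before the start, and 2 times in the Ucn3 window, 199 and 34 bases before it. The Slc17a6 window held it 150 bases before the start, and the window of the gene's other start (chr7:51621580-51621879) held it 134 and 90 bases before. These 5 letters are common: 61.3% of the 32851 promoter windows in the table hold them on one strand or the other. The Sct window held none and instead had a TATA box 28 bases before the start, which 13.6% of windows share. The core of the cyclic AMP response element, found in 20.8% of windows, was present in the printed Slc17a6 window, 102 bases before the start. The full cyclic AMP response element, the AP-1 site, the composite and the parts of the REST site were in none of the 5 windows, and each is in between 1.21% and 7.81% of all windows. The windows also differed in base composition: that of Sct was 66.7% G and C with 24 CpG pairs, against 48.3% and 3 in Tac2, 44.7% and 1 in Ucn3 and 43.0% and 3 in the printed Slc17a6 window. The window of the other Slc17a6 start had 53.7% and 8. The medians over all windows were 52.7% and 7. A match is a run of letters, not a measured binding site, and these data do not measure binding.

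The array values are log2 signals that the authors made with MAS5, which summarises the oligonucleotides of each probe set as 1 number and scales the array. A difference of 1 on this scale is a doubling of the signal. As a level for silent genes, the 95th percentile of 44 probe sets for olfactory receptors, genes of the nose, was taken on each array, and it lay between 5.62 and 5.93. A signal under that level is called dim below, and where the lower group was dim on both arrays the fold is given as a lower bound against that level. Arrays of the same group correlated with r between 0.968 and 0.974 over all probe sets, and arrays of different groups with r between 0.918 and 0.963. An error after ± on a difference is the moderated standard error from the limma model of all 8 arrays, with 2 arrays in each group. In RNA from whole cultures, fewer cells with a transcript and less transcript per cell cannot be told apart.

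**Figure D1:**
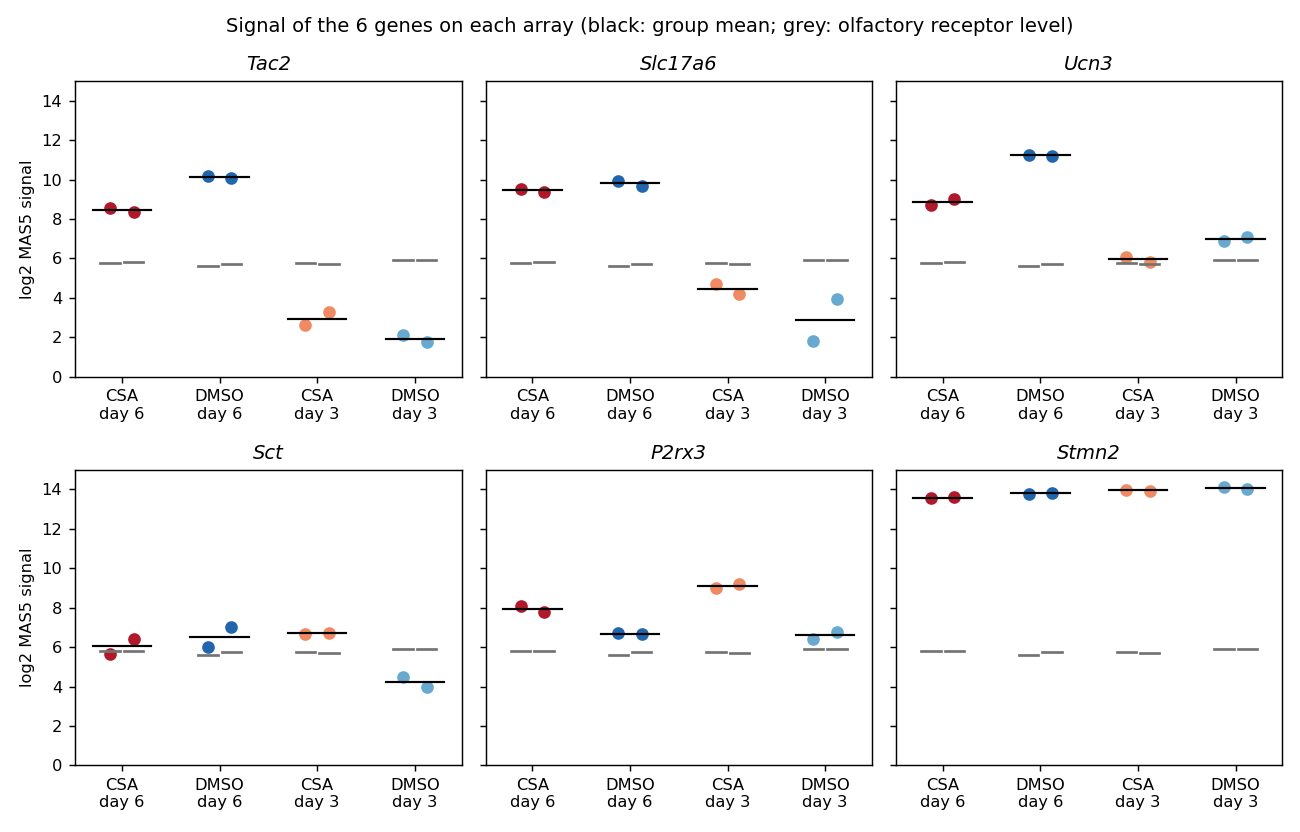
Log2 MAS5 signal of the 6 genes (vertical axis) on each of the 8 arrays, in the groups CSA day 6, DMSO day 6, CSA day 3 and DMSO day 3 from left to right. Points are arrays, black lines are means of 2 arrays and grey lines are the olfactory receptor level of that array (5.62 to 5.93). Tac2 and Slc17a6 were under that level on all 4 day 3 arrays and above 8 on all 4 day 6 arrays, and Stmn2 was above 13 throughout.

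Tac2 gave log2 signals of 8.55 and 8.35 in CSA at day 6 and 10.18 and 10.07 in DMSO at day 6, against 2.61 and 3.29 in CSA at day 3 and 2.10 and 1.75 in DMSO at day 3. The gene was dim on all 4 arrays of day 3 and bright on all 4 of day 6, with no overlap between days. Between days the difference was 5.50 ± 0.47 in CSA and 8.20 ± 0.47 in DMSO. These sizes rest on day 3 signals under the level for silent genes. As a bound, the day 6 level was at least 6.53-fold higher in CSA and at least 18.4-fold higher in DMSO. A floor at a log2 signal of 5 made the difference between days 3.45 in CSA and 5.12 in DMSO.

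At day 6 the Tac2 signal in CSA was lower than in DMSO by 3.20-fold (log2 difference -1.68 ± 0.47), and the arrays of the treatments did not overlap. At day 3 the difference ran the other way, 1.02 ± 0.47, but both treatments were dim, so no fold is given, and under the floor it was 0. The change in the CSA difference between day 6 and day 3 was -2.70 ± 0.67 as measured and -1.68 under the floor.

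Ucn3 gave 8.72 and 9.02 in CSA at day 6, 11.26 and 11.22 in DMSO at day 6, 6.08 and 5.84 in CSA at day 3 and 6.90 and 7.07 in DMSO at day 3. It was above the olfactory receptor level on all 8 arrays, by little in CSA at day 3. The 4 groups did not overlap, and their order from high to low was DMSO day 6, CSA day 6, DMSO day 3 and CSA day 3. Between days the signal was higher at day 6 by 7.54-fold in CSA (2.91 ± 0.18) and by 19.2-fold in DMSO (4.26 ± 0.18).

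CSA went with a lower Ucn3 signal at both days. The difference from DMSO was -2.37 ± 0.18 at day 6, which is 5.16-fold lower, and -1.02 ± 0.18 at day 3, which is 2.03-fold lower. The CSA difference was further below 0 at day 6 than at day 3 by 1.35 on the log2 scale (-1.35 ± 0.25).

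Sct stayed near the limit of detection. It gave 5.67 and 6.42 in CSA at day 6, 6.01 and 7.01 in DMSO at day 6, 6.66 and 6.74 in CSA at day 3 and 4.46 and 3.98 in DMSO at day 3. DMSO at day 3 was the one group that was dim on both arrays, and the first CSA array of day 6 was dim as well. The other 3 groups lay within 1 log2 unit of each other in their means, at 6.05, 6.51 and 6.70. At day 3 the CSA signal was at least 1.71-fold that of DMSO, with a measured difference of 2.48 ± 0.52, which a floor at 5 made 1.70.

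At day 6 the Sct arrays of CSA and DMSO overlapped, and their difference of -0.46 ± 0.52 was 0.04 without the second DMSO array. Between days the secretin gene was at least 1.51-fold higher at day 6 than at day 3 in DMSO (measured difference 2.29 ± 0.52), while in CSA it was lower at day 6 by 0.65 on the log2 scale (-0.65 ± 0.52). The highest mean of this gene was in CSA at day 3, while those of Tac2 and Ucn3 were in DMSO at day 6.

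Slc17a6, the glutamate transporter gene, gave 9.54 and 9.37 in CSA at day 6, 9.93 and 9.70 in DMSO at day 6, 4.68 and 4.18 in CSA at day 3 and 1.81 and 3.94 in DMSO at day 3. As with Tac2, all day 3 arrays were dim and all day 6 arrays were bright. The day 6 level was at least 13.1-fold higher than that of day 3 in CSA and at least 14.9-fold higher in DMSO, with measured differences of 5.03 ± 0.56 and 6.94 ± 0.56. The second probe set of the gene gave 8.19 and 7.82, 8.50 and 8.80, 4.79 and 5.53, and 3.40 and 2.82 in the same order of groups, and bounds of at least 4.81-fold in CSA and at least 6.63-fold in DMSO.

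The treatment differences of Slc17a6 were small beside those between days. At day 6 CSA was lower than DMSO by 1.28-fold on the brighter probe set (-0.36 ± 0.56) and by 1.56-fold on the other (-0.64 ± 0.43), each without overlap. At day 3 both treatments were dim on both probe sets, and the measured difference of 1.55 ± 0.56 was 0 under the floor. It was 0.49 without the first DMSO array of day 3 and 2.62 without the second.

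P2rx3 was the gene of the 6 whose signal was higher with CSA at both days. It gave 8.10 and 7.78 in CSA at day 6, 6.70 and 6.66 in DMSO at day 6, 8.99 and 9.19 in CSA at day 3 and 6.41 and 6.79 in DMSO at day 3. Every CSA array was above every DMSO array. CSA was 2.40-fold higher than DMSO at day 6 (1.26 ± 0.23) and 5.60-fold higher at day 3 (2.49 ± 0.23). Within DMSO the arrays of both days overlapped (0.08 ± 0.23, and -0.20 under quantile normalization), and within CSA day 6 was 2.21-fold lower than day 3 (-1.15 ± 0.23).

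The second P2rx3 probe set gave 7.54 and 7.12 in CSA at day 6, 4.88 and 6.31 in DMSO at day 6, 8.34 and 8.56 in CSA at day 3 and 3.83 and 4.77 in DMSO at day 3. It was at least 5.78-fold higher with CSA at day 3. The third gave 5.0 and 6.53, 3.75 and 6.31, 7.02 and 6.74, and 5.50 and 5.25 in the same order, at least 1.94-fold higher with CSA at day 3 and overlapping at day 6. All 3 probe sets had positive CSA differences at both days and a negative day difference in CSA, and in DMSO the 2 dimmer ones were under the level on both arrays of day 3, so no day difference in DMSO is given for them.

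**Figure D2:**
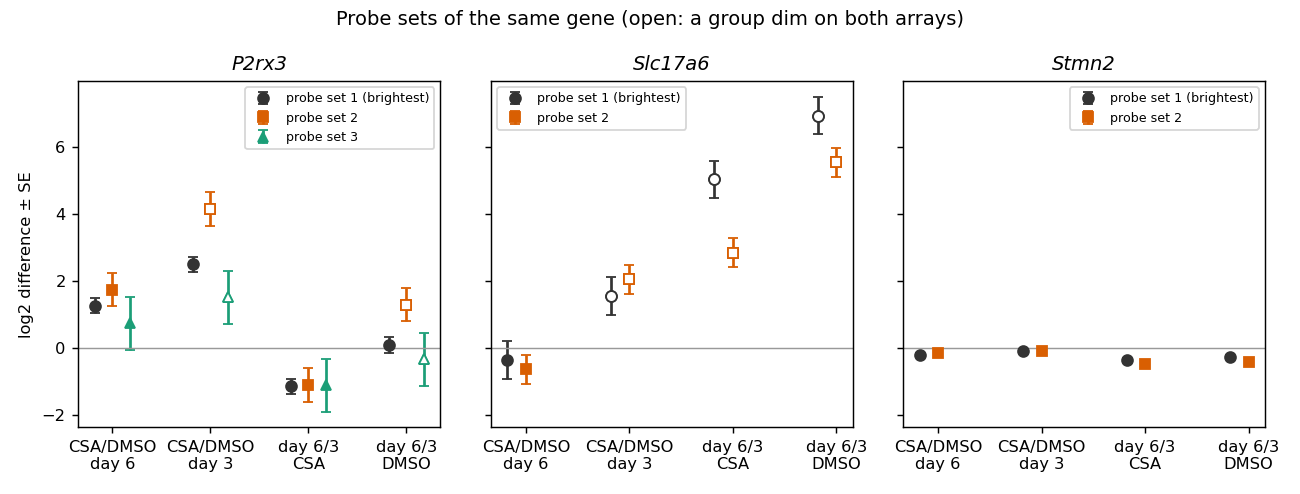
Log2 difference with its moderated standard error (vertical axis) for each probe set of P2rx3, Slc17a6 and Stmn2 in 4 comparisons: CSA against DMSO at each day (day 6 first), and day 6 against day 3 within CSA and within DMSO. Open symbols are differences in which at least 1 group was dim on both arrays, so their size is not a measured one. The 3 P2rx3 probe sets lie between 0.73 and 1.74 for CSA at day 6 and above 0 at day 3, and the Stmn2 probe sets lie close to 0.

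Stmn2 went against the description of the group as dim genes with extreme changes. It gave 13.55 and 13.61 in CSA at day 6, 13.78 and 13.81 in DMSO at day 6, 13.98 and 13.93 in CSA at day 3 and 14.10 and 14.04 in DMSO at day 3, the brightest of the 6 on every array. The 4 groups did not overlap, because replicate arrays were within 0.06 log2 units of each other, yet the group means spanned only 13.58 to 14.07. Its second probe set ran in parallel, between 12.51 and 13.17.

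The Stmn2 signal with CSA was 1.16-fold lower than with DMSO at day 6 (-0.22 ± 0.06) and 1.08-fold lower at day 3 (-0.11 ± 0.06). Day 6 was lower than day 3 by 1.30-fold in CSA (-0.37 ± 0.06) and by 1.21-fold in DMSO (-0.27 ± 0.06). Of 12529 genes, 8183 had a larger day difference in DMSO. The day difference in DMSO depended on scaling: it was 0.005 after quantile normalization and -0.49 after each array was centred on its median, against -0.27 as deposited. The median of all genes between days was 0.08 as deposited in CSA and in DMSO, and centring made it -0.28 in CSA and -0.14 in DMSO, shifts of -0.36 and -0.22. In CSA centring made the Stmn2 difference -0.74.

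**Figure D3:**
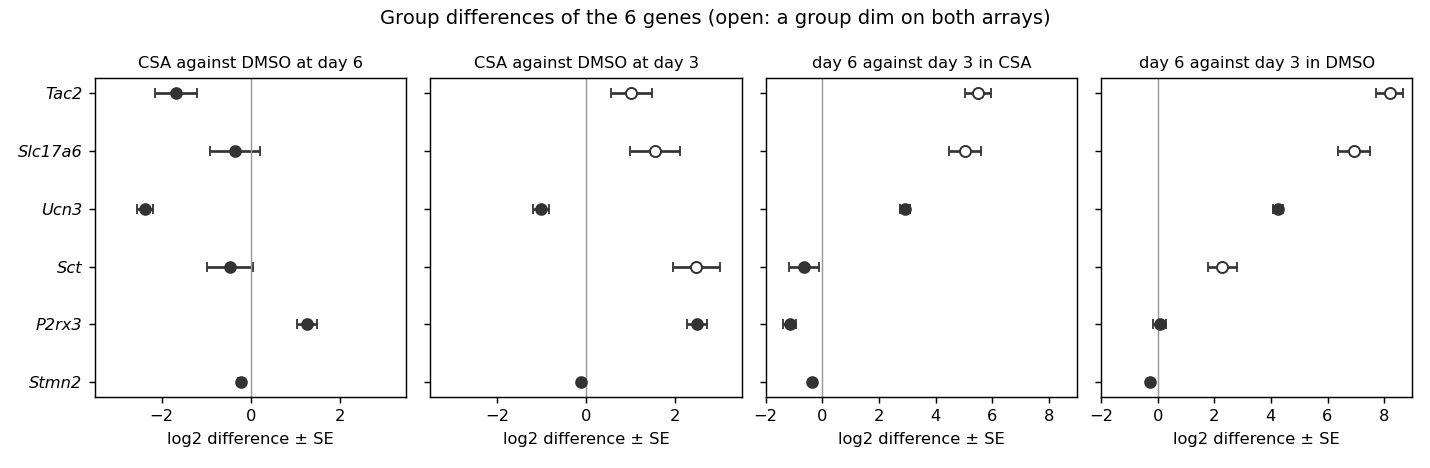
Log2 difference with its moderated standard error (horizontal axis) of each of the 6 genes on its brightest probe set. From left to right the panels show CSA against DMSO at day 6 and day 3 and day 6 against day 3 in CSA and DMSO. Open symbols are differences in which at least 1 group was dim on both arrays, as at day 3 for Tac2 and Slc17a6, so their size is not a measured one. Ucn3 lies at 2.91 and 4.26 in the day panels, and P2rx3 is the one gene right of 0 in both treatment panels.

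Among themselves the 6 genes had 4 kinds of profile over the arrays. Tac2, Slc17a6 and Ucn3 were higher at day 6, with Pearson correlations of 0.97 between Tac2 and Slc17a6, 0.92 between Tac2 and Ucn3 and 0.85 between Slc17a6 and Ucn3 over the 8 arrays. P2rx3 ran with the treatment and correlated at -0.24 with Tac2, -0.57 with Ucn3 and 0.52 with Sct. Sct, highest in CSA at day 3 and dim on both arrays in DMSO at day 3 alone, correlated about as much with Slc17a6 (0.51) and Tac2 (0.50) as with P2rx3. Stmn2 had a shallow profile opposite to that of the day 6 genes, with -0.88 against Slc17a6 on the deposited values. Its day difference in DMSO depended on the scaling, as given above. These correlations describe 8 arrays that fall into 4 groups of 2, and the 6 genes were chosen on the same values.

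The genes with the most similar profiles were sought among all tested genes by the root mean square difference of log2 signals over the 8 arrays, each gene centred on its own mean. For Tac2 these were Slc17a6 itself at 0.95, Saa1, an acute-phase protein, at 1.04 and Ret, the receptor for glial cell line-derived neurotrophic factor ligands, at 1.23, against a size of 3.5 for the Tac2 profile. For Slc17a6 they were Penk, the enkephalin precursor, at 0.85, Tac2 at 0.95 and Fos, an immediate early transcription factor, at 0.99. The group means of Penk were 10.33 in CSA and 10.35 in DMSO at day 6 and 6.4 in CSA and 5.49 in DMSO at day 3. Fos was bright throughout, with means of 13.51 in CSA and 13.83 in DMSO at day 6 and 9.18 in CSA and 8.99 in DMSO at day 3.

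The nearest profiles to Ucn3 were those of Tfap2a, a transcription factor of epidermis and neural crest, at 0.47, 2610528A11Rik at 0.59 and Tspan8, a tetraspanin, at 0.60. Tfap2a had means of 9.12 in CSA and 10.26 in DMSO at day 6 and 5.60 in CSA and 6.61 in DMSO at day 3, the same order of groups as Ucn3. P2rx3 was most similar to Ank2, the membrane adaptor ankyrin 2, at 0.19, then Mei4, a meiotic recombination gene, at 0.27 and Tspyl4 at 0.34. Sct was nearest 1700037C18Rik at 0.31, Frmpd1 at 0.39 and Ifi203 at 0.45. The shallow profile of Stmn2, with a size of only 0.19, was nearest Pisd at 0.03, Pak1ip1 at 0.04 and Zswim7 at 0.04.

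Of the close relatives and receptors, those of the 3 peptides were under the filter or passed no test, while Slc17a5, Slc17a9, Stmn1 and P2rx4 were called in some comparisons. The tachykinin precursor Tac1 lay between 4.86 and 6.33, and the smallest adjusted p of its 5 contrasts was 0.14 in limma. The tachykinin receptors Tacr1 (2.80 to 3.44) and Tacr3 (4.45 to 5.80) were under the filter, and Tacr2 (5.03 to 6.84) passed no test. Of the other precursors related to secretin and urocortin 3, Vip, Adcyap1, Crh, Ucn and Ucn2 were under the filter. The receptors Sctr (2.20 to 7.48), Crhr1 (5.09 to 7.39) and Crhr2 (5.52 to 6.68) were tested, and their smallest adjusted p values were 0.193, 0.345 and 0.334. None of the receptors tested for the 3 peptides was thus called in any contrast at 0.05.

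The vesicular glutamate transporter gene Slc17a7 was also under the filter, between 2.76 and 6.07. Slc17a5, the lysosomal sialic acid transporter, rose with CSA at day 3 by 0.75 ± 0.12 (adjusted p = 0.003 in limma, 0.0576 without the intensity trend) and rose between days in DMSO by 0.72 ± 0.12 (adjusted p = 0.00061). Slc17a9, the vesicular nucleotide transporter, rose between days in CSA by 1.35 ± 0.42 (adjusted p = 0.0318). This call was lost under quantile normalization (adjusted p = 0.0973), median centring (0.085) and no intensity trend (0.109), and without the first CSA array of day 3 (0.252) or either CSA array of day 6 (0.0552 and 0.174). In DMSO its day difference was 0.22 (adjusted p = 0.718).

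Among the stathmins, Stmn1, the ubiquitous member, was bright (12.39 to 13.20) and fell between days by 0.35 in CSA and 0.36 in DMSO, calls that quantile normalization ended (adjusted p = 0.0989 and 0.193). It also fell with CSA by 0.34 ± 0.07 at day 6 (adjusted p = 0.012) and 0.35 ± 0.07 at day 3 (adjusted p = 0.0101), so its signs were those of Stmn2 in all 4 comparisons. The CSA calls were lost without the intensity trend (adjusted p = 0.15 at day 6 and 0.147 at day 3) and in the fit without probe sets ending in s_at or x_at (0.397 and 0.272). They were also lost at day 6 without the second DMSO array (0.111) or the first CSA array (0.0739), and at day 3 without the second DMSO array (0.0543) or either CSA array (0.0604 and 0.0835). Stmn3 (4.40 to 6.48) passed no test, and Stmn4 was under the filter.

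Of the other ATP-gated channels, P2rx4, which is found in many tissues, rose with CSA at day 3 by 0.73 ± 0.11 (adjusted p = 0.00159 in limma), and its difference at day 6 was 0.31 (adjusted p = 0.0924). Of its 2 other tested probe sets, 1 also rose at day 3 and 1 differed in sign without passing the test, and the mean of its probe sets rose by 0.47 (adjusted p = 0.0224). P2rx7 (6.19 to 7.25) passed no test, and P2rx2, which pairs with P2rx3 in sensory neurons, lay between 1.89 and 4.54. Nt5e, the ectonucleotidase that makes adenosine, rose with CSA at day 3 by 0.95 ± 0.10 (adjusted p = 0.000289) on its brightest probe set. The mean of its tested probe sets gave 0.51 (adjusted p = 0.204).

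Wider lists of neuronal and endocrine genes were tested with the 6 genes left out. The 10 lists hold 339 genes, of which 166 passed the filter. A gene was called at an adjusted p under 0.05 over all tested probe sets in limma. With CSA at day 6, 9 of the 166 were higher and 20 lower, against 6.41% higher and 6.11% lower of all tested genes. With CSA at day 3, 10 were higher and 15 lower, against 7.14% and 5.52% of all tested genes. Median centring, which moves the all-gene median there by 0.06, made this 14 higher and 10 lower. Over all tested genes it made 1138 higher and 429 lower, against 895 and 692 as deposited. The median difference of the list genes was -0.004 at day 6 and -0.14 at day 3, against -0.01 and -0.004 over all genes.

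The counts of the CSA comparisons fell without any array of a compared group, which leaves that group a single array. They also depended on the variance model. Both held for the counts of all tested genes as well. At day 6 the 29 calls became 15 without the first DMSO array, 13 without the second, 15 without the first CSA array and 17 without the second. At day 3 the 25 calls became 14 without either CSA array. Without the intensity trend in the variance they were 11 at day 6 and 8 at day 3. Of all tested genes, 3.38% at day 6 and 2.19% at day 3 were then called, against 12.5% and 12.7% with the trend.

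Between days more list genes were called. In CSA 41 rose and 17 fell, against 20.2% higher and 15.8% lower of all tested genes, and in DMSO 52 rose and 21 fell, against 26.1% and 19.6%. The percentages of the list genes were 24.7% and 10.2% in CSA and 31.3% and 12.7% in DMSO. The split depended on scaling: with each array centred on its median it was 23 higher and 36 lower in CSA and 40 higher and 33 lower in DMSO. The calls over all 12529 tested genes moved the same way. In CSA they went from 2535 higher and 1984 lower to 994 and 4668, and in DMSO from 3272 and 2460 to 2080 and 3739. For the change in the CSA difference between days, 7 list genes were above 0 and 11 below, against 2.36% and 3.43% of all genes. Median centring made that 5 and 16, and without the intensity trend none passed, with 43 at an unadjusted p under 0.05 in limma. Over all tested genes centring made it 137 above 0 and 818 below, and without the trend none passed either. The 18 calls became 6 without either CSA array of day 3, 9 and 7 without the first and the second DMSO array of day 6, and 10 and 7 without the first and the second CSA array of day 6.

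**Figure D4:**
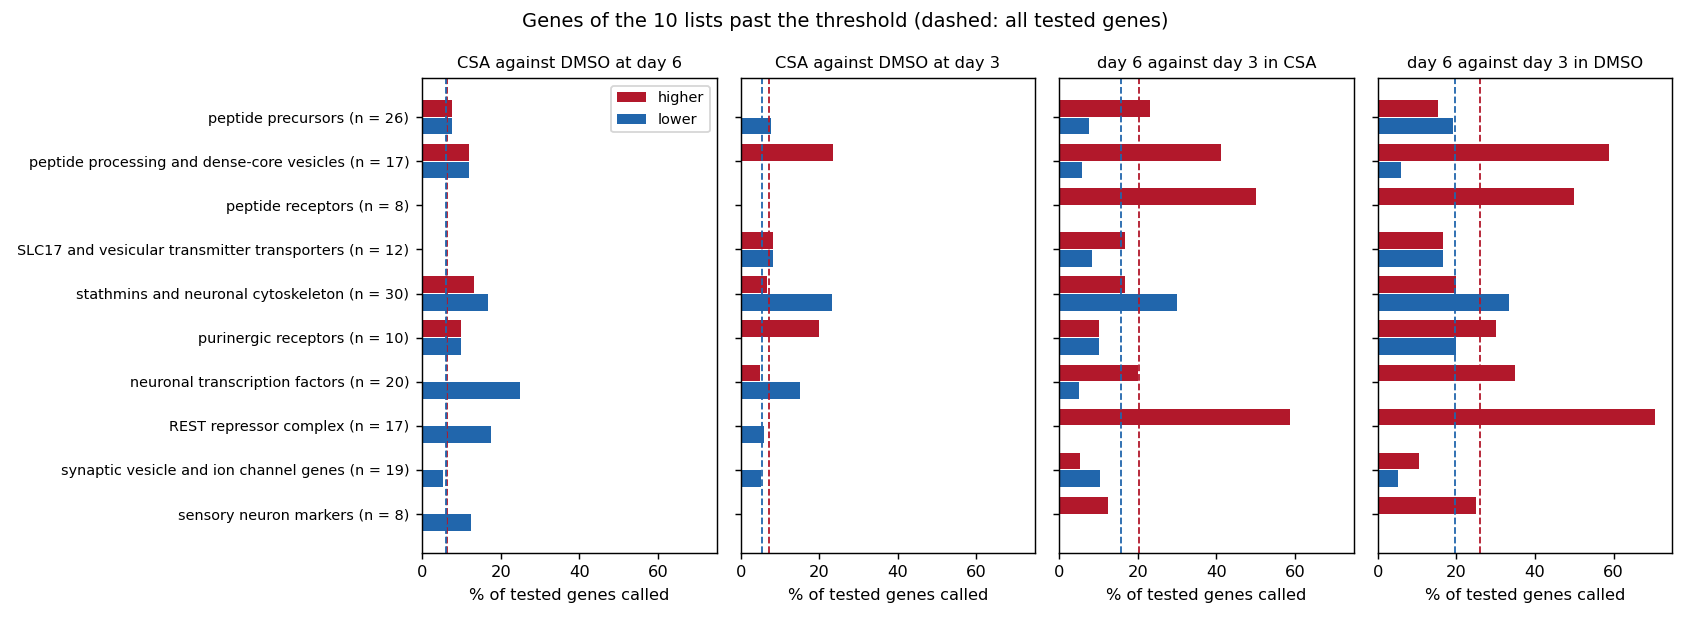
Percentage of tested genes in each of the 10 lists (horizontal axis) that limma called higher (red) or lower (blue), with dashed lines for all tested genes. The 4 panels show CSA against DMSO at day 6 and day 3 and day 6 against day 3 in CSA and DMSO, and n is the number of genes tested. In the REST repressor complex list 10 of 17 genes were higher at day 6 in CSA and 12 of 17 in DMSO, the first of which median centring turned into 3 higher and 6 lower.

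Of 26 tested peptide precursors, 2 rose and 2 fell with CSA at day 6, and none rose and 2 fell at day 3. That was 7.69% each way at day 6 and 7.69% lower at day 3. Over all tested genes it was 6.41% higher and 6.11% lower at day 6, and 7.14% and 5.52% at day 3. Between days 6 rose and 2 fell in CSA, and 4 rose and 5 fell in DMSO. That was 23.1% and 7.69% in CSA and 15.4% and 19.2% in DMSO. Over all tested genes it was 20.2% and 15.8% in CSA and 26.1% and 19.6% in DMSO. Penk rose by 3.93 ± 0.43 in CSA (adjusted p = 7.08e-05) and by 4.86 ± 0.43 in DMSO (adjusted p = 7.34e-06). Nppc, the C-type natriuretic peptide precursor, rose by 2.68 in CSA and 2.83 in DMSO, and Nts, the neurotensin precursor, by 2.11 and 1.71 (limma, called in both). Calcb, the precursor of a calcitonin gene-related peptide, rose in CSA by 2.24 ± 0.21 (adjusted p = 2.07e-05). Nppb, the B-type natriuretic peptide precursor, fell between days by 1.07 in CSA and 0.65 in DMSO, and with CSA at day 6 it fell by 0.72 ± 0.07 (adjusted p = 0.00019).

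Of 17 genes for peptide processing and dense-core vesicles, 7 rose and 1 fell between days in CSA, and 10 rose and 1 fell in DMSO. Under median centring these were 3 and 3 in CSA and 8 and 2 in DMSO. As deposited, 41.2% rose and 5.88% fell in CSA, against 20.2% and 15.8% of all tested genes. In DMSO 58.8% rose and 5.88% fell, against 26.1% and 19.6%. Pam, which amidates peptide ends, rose by 1.06 ± 0.21 in CSA (adjusted p = 0.00299; median centring made it 0.70) and by 1.66 ± 0.21 in DMSO (adjusted p = 8.49e-05). Rab27a, a vesicle-docking GTPase, rose by 1.80 ± 0.16 in CSA and 2.68 ± 0.16 in DMSO. Cpe, carboxypeptidase E, was bright and rose by 0.65 in CSA (0.29 under median centring) and by 0.38 in DMSO, the second of which median centring ended (0.16, adjusted p = 0.107). Scg5, the chaperone of proprotein convertase 2, fell by 0.71 ± 0.09 in CSA (-1.07 under median centring) and by 1.68 ± 0.09 in DMSO, and at day 6 it was higher with CSA by 0.68 ± 0.09 (adjusted p = 0.00092).

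With CSA at day 3, 4 processing genes rose (23.5%, against 7.14% of all tested genes) and none fell (against 5.52%). They were Qpct, glutaminyl cyclase, by 2.13 ± 0.26 (adjusted p = 0.000639 in limma), Rab3d by 0.67, Dnajc5 by 0.58 and Ica1 by 0.44. Dnajc5 lost its call with the mean of its probe sets (0.36, adjusted p = 0.0603). The call of Rab3d was lost without the second DMSO array of day 3 (adjusted p = 0.0836) and without either CSA array of day 3 (adjusted p = 0.0703 and 0.0914). Pcsk1, a convertase that cuts many neuropeptide precursors, was under the filter, between 2.09 and 6.28.

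Of 8 tested peptide receptor genes 4 rose between days and none fell, in CSA and in DMSO. These were 50% in each, against 20.2% higher and 15.8% lower of all tested genes in CSA and 26.1% and 19.6% in DMSO. All 4 serve calcitonin-family peptides: Calcrl, a receptor for adrenomedullin and calcitonin gene-related peptide, and its partners Ramp1, Ramp2 and Ramp3. Ramp3 rose by 2.03 ± 0.22 in CSA (adjusted p = 7e-05) and 2.51 ± 0.22 in DMSO (adjusted p = 7.22e-06), and Calcrl by 0.90 in CSA and 2.31 in DMSO. A second probe set of Ramp1 differed in sign. Quantile normalization and median centring each left 2 of the 8 called in CSA and 3 in DMSO. With CSA no receptor gene was called at day 6 or at day 3 by limma, with 2 and 1 at an unadjusted p under 0.05.

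The cytoskeletal list, to which Stmn2 belongs, had 30 tested genes. With CSA 4 rose and 5 fell at day 6 (2 and 5 under median centring), and 2 rose and 7 fell at day 3 (2 and 4 under median centring). As deposited that was 13.3% and 16.7% at day 6, against 6.41% and 6.11% of all tested genes. At day 3 it was 6.67% and 23.3%, against 7.14% and 5.52%. Ank2, whose profile was nearest that of P2rx3, rose with CSA by 1.34 ± 0.15 at day 6 (adjusted p = 0.000357; 2.16 without probe sets ending in s_at or x_at) and 2.25 ± 0.15 at day 3 (adjusted p = 1.42e-05). Marcksl1, an actin-binding protein kinase C substrate, fell by 0.79 ± 0.09 at day 6 (adjusted p = 0.000289) and 0.96 ± 0.09 at day 3 (adjusted p = 0.000101). Between days Tubb3, the neuronal beta-tubulin, fell by 1.55 ± 0.10 in CSA (adjusted p = 1.38e-06) and 2.41 ± 0.10 in DMSO (adjusted p = 3.65e-08). In all, 5 of the list rose and 9 fell between days in CSA, and 6 rose and 10 fell in DMSO, and median centring made these 5 and 14 in CSA and 4 and 13 in DMSO. As deposited, 16.7% rose and 30% fell in CSA, against 20.2% and 15.8% of all tested genes. In DMSO 20% rose and 33.3% fell, against 26.1% and 19.6%.

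Of 12 tested transporter genes, 2 rose and 1 fell between days in CSA, and 2 rose and 2 fell in DMSO (1 and 2 in each under median centring). As deposited, 16.7% rose and 8.33% fell in CSA, against 20.2% and 15.8% of all tested genes. In DMSO 16.7% rose and 16.7% fell, against 26.1% and 19.6%. Ddc, the decarboxylase of dopamine and serotonin synthesis, fell by 0.96 ± 0.11 in CSA (adjusted p = 9.44e-05) and 1.21 ± 0.11 in DMSO (adjusted p = 9.18e-06). With CSA none of the 12 was called at day 6 by limma, with 4 at an unadjusted p under 0.05. At day 3, 1 rose (Slc17a5) and 1 fell (Ddc), 8.33% each way against 7.14% and 5.52% of all tested genes. The call of Ddc was lost without either CSA array of day 3 (adjusted p = 0.0642 and 0.0682). Of 10 purinergic genes, 1 rose and 1 fell with CSA at day 6, and 2 rose and none fell at day 3. That was 10% each way at day 6, against 6.41% and 6.11% of all tested genes. At day 3 it was 20% and 0%, against 7.14% and 5.52%. Between days 1 rose and 1 fell in CSA, and 3 rose and 2 fell in DMSO (0 and 1, and 2 and 3, under median centring). As deposited, 10% rose and 10% fell in CSA, against 20.2% and 15.8% of all tested genes. In DMSO 30% rose and 20% fell, against 26.1% and 19.6%. Panx1, an ATP release channel, fell between days by 0.66 ± 0.12 in CSA (adjusted p = 0.0013; -1.02 under median centring) and 1.24 ± 0.12 in DMSO (adjusted p = 9.08e-06).

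Of 20 neuronal transcription factors, none rose and 5 fell with CSA at day 6, and 1 rose and 3 fell at day 3. That was 0% and 25% at day 6, against 6.41% and 6.11% of all tested genes. At day 3 it was 5% and 15%, against 7.14% and 5.52%. Sox11, a factor of immature neurons, fell by 0.58 ± 0.09 at day 6 (adjusted p = 0.00164 in limma, 0.0615 without the intensity trend) and 0.68 ± 0.09 at day 3 (adjusted p = 0.000664, 0.0523 without it). Between days it rose by 1.11 ± 0.09 in CSA and 1.01 ± 0.09 in DMSO. In the whole list 4 rose and 1 fell between days in CSA, and 7 rose and none fell in DMSO, which median centring made 2 and 3 in CSA and 5 and 4 in DMSO. As deposited, 20% rose and 5% fell in CSA, against 20.2% and 15.8% of all tested genes. In DMSO 35% rose and 0% fell, against 26.1% and 19.6%. Hes6, a basic helix-loop-helix factor, fell with CSA at day 3 by 0.76 ± 0.12 (adjusted p = 0.00261). Among the 17 genes of the REST complex list, 10 rose between days in CSA (58.8%) and 12 in DMSO (70.6%), and none fell. Of all tested genes 20.2% rose and 15.8% fell in CSA, and 26.1% rose and 19.6% fell in DMSO. Median centring made these 3 higher and 6 lower in CSA and 10 higher and 1 lower in DMSO.

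Rest itself rose by 0.71 ± 0.11 in DMSO (adjusted p = 0.000394), and the mean of its probe sets gave 0.35 (adjusted p = 0.118). In CSA its difference of 0.32 (adjusted p = 0.0476) became -0.04 (adjusted p = 0.842) with median centring, and it lost its call without the second CSA array of day 3 (adjusted p = 0.291) or the first of day 6 (adjusted p = 0.242). The phosphatase gene Ctdsp2 rose by 1.35 ± 0.07 in CSA and 1.22 ± 0.07 in DMSO on its brightest probe set. Without probe sets ending in s_at or x_at, Ctdsp2 gave 0.71 in CSA (adjusted p = 0.0054) and 0.19 in DMSO (adjusted p = 0.374), which ended the call in DMSO. The corepressor gene Sin3a rose by 1.11 ± 0.15 in CSA (0.47 without such probe sets) and 1.13 ± 0.15 in DMSO. With CSA 3 genes of the list fell at day 6 (17.6%, against 6.11% of all tested genes) and 1 at day 3 (5.88%, against 5.52%). Hdac1, a histone deacetylase, was among them at both days, by 0.48 ± 0.07 at day 6 (adjusted p = 0.00189, 0.0795 without the intensity trend) and 0.39 ± 0.07 at day 3 (adjusted p = 0.00688, lost without the first CSA array of day 3 at 0.0727).

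Markers of the cell types that normally express the 6 genes were in part above the olfactory receptor level. Being above it is common: the median of all probe sets (6.15 to 6.53) exceeded that level (5.62 to 5.93) on every array. The counts above it, here and for the other marker lists below, therefore do not show that a cell type was present. Of 14 neuron markers, 8 were above the olfactory receptor level on both arrays in CSA at day 6, 9 in DMSO at day 6, 7 in CSA at day 3 and 8 in DMSO at day 3. Of these markers, 6 were above it on all 8 arrays (Rbfox3, Tubb3, Map2, Mapt, Syt1 and Nefl), while the synaptic genes Snap25 and Syn1 were above it on none and Snap25 was at 0 on at least 1 array. Their mean log2 signal was 6.34 and 6.52 in CSA at day 6, 6.81 and 6.90 in DMSO at day 6, 6.29 and 6.46 in CSA at day 3 and 6.99 and 6.69 in DMSO at day 3. Between days these means overlapped in CSA and in DMSO. With CSA they were lower than with DMSO at both days, without overlap, as the Tac2 signal was at day 6 and the Ucn3 signal at both days.

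Of the 10 neuron markers that were tested, 2 rose and 3 fell with CSA at day 6, and 1 rose and 3 fell at day 3. Of all tested genes, 6.41% rose and 6.11% fell at day 6, and 7.14% and 5.52% at day 3. The median difference of the 10 markers was -0.54 at day 6 and -0.53 at day 3. Median centring made the marker counts 0 and 3 at day 6 and 1 and 1 at day 3. The CSA counts were smaller in every fit without an array of a compared group, which leaves that group a single array. Between days 3 rose and 1 fell in CSA, and 4 rose and 1 fell in DMSO, which median centring made 2 and 3 in CSA and 2 and 2 in DMSO. As deposited, 30% rose and 10% fell in CSA, against 20.2% and 15.8% of all tested genes. In DMSO 40% rose and 10% fell, against 26.1% and 19.6%. Those that rose were Syt1, Nefl and Gap43 in CSA and Rbfox3, Map2, Mapt and Syt1 in DMSO, and the one that fell in both was Tubb3. In limma the Syt1 calls were lost under quantile normalization (adjusted p = 0.327 in CSA and 0.297 in DMSO) and median centring (0.415 and 0.216). They were also lost with the mean of its probe sets (0.543 and 0.536). The same mean ended the Rbfox3 call in DMSO (0.56, adjusted p = 0.0612).

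Of 17 sensory neuron markers, 5 were above the level on all 8 arrays, and Trpa1, Scn10a, Scn11a and Isl1 were above it on none. Of the 8 that were tested, 1 rose between days in CSA (12.5%) and 2 in DMSO (25%), and none fell. Of all tested genes 20.2% rose in CSA and 26.1% in DMSO. The median day difference of the 8 was 0.165 in CSA and 0.126 in DMSO. The mean of the 17 was 5.84 and 5.58 in CSA at day 6, 5.76 and 5.68 in DMSO at day 6, 5.49 and 5.57 in CSA at day 3 and 5.66 and 5.63 in DMSO at day 3. Among the 8, Ret had the largest differences. It rose between days by 4.0 ± 0.21 in CSA (adjusted p = 3.9e-07) and 5.37 ± 0.21 in DMSO (adjusted p = 2.76e-08), and with CSA at day 6 it fell by 1.88 ± 0.21 (adjusted p = 0.000279). The signs of these differences were those of Tac2 and Ucn3. Of 17 neuroendocrine and islet markers, Insm1 and Slc18a1 were above the level on all 8 arrays, and Isl1, Gcg, Scg2 and G6pc2 on none. Their mean was 4.86 and 5.52 in CSA at day 6, 4.81 and 5.43 in DMSO at day 6, 5.27 and 5.07 in CSA at day 3 and 5.08 and 5.02 in DMSO at day 3.

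Of 36 synaptic vesicle and ion channel genes, 6 were above the level on all 8 arrays and 9 on none. Of the 19 that were tested, 1 fell and none rose with CSA at each day. That 5.26% lower is near the share of all tested genes, 6.11% at day 6 and 5.52% at day 3. Between days 1 rose and 2 fell in CSA, and 2 rose and 1 fell in DMSO. Between days 5.26% rose and 10.5% fell in CSA, against 20.2% and 15.8% of all tested genes. In DMSO 10.5% rose and 5.26% fell, against 26.1% and 19.6%. Quantile normalization made the day counts 0 and 2 in CSA and 0 and 3 in DMSO. Fibroblast markers were bright, with 11 of 13 above the level on all 8 arrays. Their mean was 10.93 and 10.92 in CSA at day 6, 11.07 and 11.05 in DMSO at day 6, 10.08 and 10.07 in CSA at day 3 and 10.13 and 10.07 in DMSO at day 3. The mean was thus higher at day 6, but single markers went both ways. Between days 9 of the 13 rose and 2 fell in CSA (69.2% and 15.4%, against 20.2% and 15.8% of all tested genes). In DMSO 8 rose and 4 fell (61.5% and 30.8%, against 26.1% and 19.6%). Of 18 glia and neural crest markers, 5 were above the level on all 8 arrays and 5 on none, and their mean was 6.34 and 6.4 in CSA at day 6, 5.80 and 6.15 in DMSO at day 6, 5.76 and 5.67 in CSA at day 3 and 5.70 and 5.87 in DMSO at day 3. Of 9 blood cell markers, Cd68 and Csf1r were above the level throughout and 6 on none. The part of these cell types in the results on the 6 genes was not tested.

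The genes on either side of the 6 on their chromosomes were looked at after the values were known, and 6 of these 12 neighbours were tested. Akr1c14, next to Ucn3, rose with CSA at day 6 by 1.07 ± 0.11 (adjusted p = 0.000138), where Ucn3 was lower. Between days it rose in CSA by 0.55 ± 0.11 and fell in DMSO by 0.60 ± 0.11, while Ucn3 was higher at day 6 under both. Of the neighbours of Tac2, Zbtb39 fell with CSA at day 6 by 0.93 ± 0.25 (adjusted p = 0.0405), as the Tac2 signal was lower there, and Myo1a had day differences of 1.24 ± 0.53 in CSA (adjusted p = 0.0993) and 1.42 ± 0.53 in DMSO (adjusted p = 0.0509). Fancf, next to Slc17a6, fell between days in DMSO by 0.67 ± 0.14 (adjusted p = 0.00274). Hey1, next to Stmn2, rose between days in DMSO by 2.10 ± 0.68 (adjusted p = 0.0279), and its difference in CSA was -0.24 ± 0.68. Il7, on the other side of Stmn2, passed no test, and the neighbours of Sct and P2rx3 were not tested.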

How the data were processed

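The study measured total RNA from 8 cultures on Affymetrix 3′ expression arrays, in 4 groups of 2. The authors deposited log2 signals for 45037 probe sets; per the submitters' processing notes they were made with MAS5, with no version given there. The deposited values were used as they stood: arrays differed in median log2 signal (6.15 to 6.53), and 110 to 259 values per array were exactly 0. No label or header names the scaling target, a scan batch or detection calls. All columns were used. The number of arrays limits the precision.

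Probe sets were named through the platform annotation: 34945 had 1 gene symbol, 932 had several and 9160 none, and only the first were used. A filter at the 40th percentile of the mean signal (5.37) kept 27022 probe sets. The 4 group means were fitted with limma 3.58.1 in R 4.3.3, with moderated variances that follow an intensity trend and 4 residual degrees of freedom, and two-sided tests; the Benjamini-Hochberg adjustment ran over all tested probe sets. Each gene was read from its tested probe set of highest mean. The fit was tested on simulated data for CSA against DMSO at day 3 over 27022 probe sets with 200 changed: of those raised by 1 log2 unit 62% were recovered, of those raised by 2 units 74%, and of those lowered by 1 or 2 units 56% and 74%.

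The 6 genes, the gene lists and the tests were chosen with earlier results of these data known, and the 6 genes carry no test. The genes named were the closest relatives and receptors of the 6, the genes of smallest p in each list, at most 3 per contrast, other called members of small counts, the 3 genes of most similar profile, and chromosomal neighbours. Promoter windows came from RefSeq (GRCm38.p6); 4 of the 6 genes matched. Other settings tried were quantile normalization, median centring, a pseudocount of 16 on the linear signals, a floor at log2 5, no filter or a filter at the 60th percentile, no intensity trend, a replicate block, no probe sets ending in s_at or x_at, only the 4 arrays compared, averaging over a gene's probe sets, and each array left out in turn.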

Additional observations from a re-analysis of the deposited data

Results flagged for a closer look

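Tac2, Slc17a6 and Sct had differences of opposite sign at day 6 and day 3, or in CSA and DMSO, without overlap of arrays in either. These differences of difference were not tested, and the genes were chosen on these same values. How many of all genes share such a pattern was not counted. Tac2 was lower with CSA at day 6 (log2 difference -1.68 ± 0.47) and higher at day 3 (1.02 ± 0.47), where both treatments were dim. A floor at log2 5 made the day 3 difference 0. Slc17a6 was lower with CSA at day 6 by less than the error (-0.36 ± 0.56). It was higher at day 3 (1.55 ± 0.56), again with both treatments dim and a difference of 0 under the floor. Sct was lower at day 6 than at day 3 in CSA (-0.65 ± 0.52) and higher in DMSO (2.29 ± 0.52), where the day 3 arrays were dim.

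Among the list genes named, the CSA difference at day 6 minus that at day 3 passed the limma interaction test for 15. It was below 0 for Qpct (-2.217, adjusted p = 0.00925), Nt5e (-1.398, adjusted p = 0.000914), Rbfox3 (-1.392, adjusted p = 0.0162), Ret (-1.373, adjusted p = 0.0255) and Rab3d (-0.979, adjusted p = 0.0225). It was also below 0 for Gata2 (-0.771), Slc17a5 (-0.726), Nppb (-0.415) and Kdm1a (-0.408), with adjusted p values of 0.0343, 0.0374, 0.0495 and 0.049. It was above 0 for Calcb (1.815, adjusted p = 0.00763), Scg5 (0.974, adjusted p = 0.00261), Nefl (0.875, adjusted p = 0.0107), Tubb3 (0.86, adjusted p = 0.00599), Basp1 (0.784, adjusted p = 0.00197) and Hes6 (0.696, adjusted p = 0.0428). None of these calls held without the intensity trend. Those of Tubb3, Calcb, Scg5 and Basp1 held under the other settings run for them and without each array in turn. That of Nt5e also held without each array, but the mean of its tested probe sets gave -0.684 (adjusted p = 0.274). The same mean ended the calls of Rab3d, Rbfox3, Gata2 and Hes6 (adjusted p = 0.238, 0.0741, 0.0648 and 0.0889). With the replicate number as a block, those of Nppb (adjusted p = 0.051) and Hes6 (0.0519) were lost.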

How the results depend on the processing

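The counts of list genes called with CSA moved most. Without the intensity trend, 8 were called for CSA at day 3 (25 with it), 11 at day 6 (29 with it) and 0 for the change in the CSA difference between days (18 with it, and 43 at an unadjusted p under 0.05 without it). Of all tested genes, 2.19%, 3.38% and 0% were called without it in these comparisons, against 12.7%, 12.5% and 5.79% with it. Leaving out each array in turn gave 14 to 26 for CSA at day 3, 13 to 28 at day 6, 6 to 15 for the change in the CSA difference, 47 to 60 between days in CSA and 57 to 72 between days in DMSO. Every other setting kept these 5 counts within 1.5 times the reported ones. With the replicate number as a block, 27, 27 and 18 were called for CSA at day 3, at day 6 and for the change between days, and 60 and 72 between days in CSA and in DMSO. The deviations of arrays that share a number correlated with r between -0.003 and 0.034. The labels name no pairing. This r cannot exclude one, because a link in some genes only would leave it small. The block ended 4 calls of named genes: Syt1 with CSA at day 6 (adjusted p = 0.0501) and between days in DMSO (0.0504), and Nppb (0.051) and Hes6 (0.0519) for the change in the CSA difference. Among named genes, the day difference of Rest in CSA was -0.039 under median centring (adjusted p = 0.842), and that of Cplx2 in DMSO was -1.091 without probe sets ending in s_at or x_at (adjusted p = 0.265) against 1.49 with them. The causes were not tested. Of 118 calls of named genes, 43 were lost without some array and 45 without the intensity trend. For the 6 genes, 89 of 135 values under other settings moved by less than 1 SD, and 46 by more; without single arrays 120 of 144 moved by less and 24 by more. Signs turned only for P2rx3 between days in DMSO (-0.200 under quantile normalization, -0.142 under median centring, -0.114 without the first DMSO array of day 3), Stmn2 there (0.005 under quantile normalization) and Sct with CSA at day 6 (0.037 without the second DMSO array). A fit of only the compared arrays could not be made for the change in the CSA difference, and no probe set of the 6 genes ends in s_at or x_at. Dim signals limit Tac2 and Slc17a6 at day 3 and Sct in DMSO at day 3.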
